A study of Mus musculus with 8 samples.

Results

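Oligodendrocytes are the glial cells that wrap axons of the central nervous system in myelin. They were taken here as the nuclei that the authors' deposited annotation places in its oligodendrocyte cluster. These were 12066 of 55672 annotated nuclei (21.7%), and among the 18 clusters those of Drd1+ and Drd2+ neurons held more. The study measured nuclear RNA and open chromatin of single nuclei from the striatum with the 10x Multiome assay, and only the RNA counts and the list of accessible regions were used here. Its 32 mice were all 12 weeks old, and the labels name no treatment. They came from 8 inbred strains, namely A/J, C57BL/6, 129S1/SvImJ, NOD/ShiLtJ, NZO/HlLtJ, CAST/EiJ, PWK/PhJ and WSB/EiJ, with 4 mice of each. Each of 4 batches pooled nuclei of 1 mouse per strain, 4 males and 4 females in a batch. The sex of a single mouse is not given in the labels used here. It was not inferred from the counts, so strain and sex were not separated mouse by mouse. The labels write C57BL/6J and the deposited annotation C57BL/6NJ, and the strain is called C57BL/6 here.

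Oligodendrocytes mature from precursor cells under transcription factors of the Sox, Olig and Nkx families and the membrane-bound factor Myrf. A mature cell extends sheets of membrane that are rich in cholesterol and galactolipids and held together by proteins such as Mbp, Mog, Mag and Mobp. In the striatum these cells myelinate the bundles of cortical axons that pass through the tissue, and they also pass lactate to axons, buffer potassium and store iron.

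The oligodendrocyte nuclei carried 21246850 counts (unique molecular identifiers, UMIs). A nucleus had a median of 1640 UMIs (5th to 95th percentile 874 to 3003), 994 detected genes and 3.63% mitochondrial counts. That median was lower than in Drd1+ neurons (6505) and astrocytes (2221). A mouse gave 133 to 1011 oligodendrocyte nuclei and 165465 to 1883033 counts, so the mouse with the fewest nuclei, PWK/PhJ of batch 3, was measured least precisely. Batch 3 stood apart in depth, with median UMIs per nucleus of 1177 to 1420 in its 8 mice. Its mice also had lower median mitochondrial counts (1.56 to 2.45% of a nucleus, against 3.45 to 4.62% in the other batches) and less of 3 summed neuron markers (90.7 to 166 CPM against 181 to 300 CPM). The part of these differences in the shifts of genes with batch 3 that are given with the genes was not tested. Among the oligodendrocyte nuclei 74 barcode sequences recurred in more than 1 batch, and nuclei were therefore told apart by batch and barcode. All 12066 nuclei had the same strain call from their RNA and their ATAC reads.

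The marker genes fit the authors' label. Levels are given as CPM, summed counts scaled to 1000000 per library, a scale that is not divided by gene length, so levels are compared between cells and not between genes. Mog, a minor protein of the outermost myelin sheet, had 1140 CPM in oligodendrocytes and 46.6 CPM in the next highest cluster outside the precursor cluster, where it had 140 CPM. Mag, the adhesion protein that faces the axon, had 1085 CPM and at most 65.9 CPM elsewhere outside the precursor cluster (349 CPM there). Mobp, a small basic myelin protein, had 1748 CPM against 685 CPM in macrophages, the next highest cluster. Mbp, the protein that compacts the inner faces of the membrane, had 7461 CPM here but also 2926 CPM in astrocytes and 904 CPM in Drd1+ neurons. Mog was the most selective of the 4 markers and Mbp the least.

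The same order held in single nuclei after each was thinned to 1000 UMIs, which left 11080 oligodendrocyte nuclei and set aside 986 shallower ones. Mog was detected in 64.2% of these nuclei (95% Wilson interval 63.3 to 65.1, counting error only), in 0.513% of Drd1+ neurons and in 2.16% of astrocytes. Mbp was detected in 99.8% of oligodendrocytes but also in 54.3% of Drd1+ neurons and 86.0% of astrocytes. Mobp was detected in 77.9% and Mag in 63.3% of oligodendrocyte nuclei. Gpr17, a receptor of cells that have just left the precursor state, was detected in 25 of 11080 nuclei (0.226%). Bcas1 and Enpp6, which are also used as markers of early myelinating cells, were detected in 45.5% and 14.3%.

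Among genes of at least 50 CPM in oligodendrocytes, 96 had at least 5 times the CPM of any other cluster outside the precursor cluster. As a description of how the cluster is set apart, with no test, the largest ratios were those of the transcripts 4930420G21Rik (386 CPM, ratio 40.1), Gm48508 (130 CPM, ratio 39.9) and Gm44866 (123 CPM, ratio 32.8). They were followed by Sec14l5, Nipal4, Ugt8a, A330049N07Rik, Insc, Cyp2j12 and Fa2h, with ratios of 32.4 to 27.7. Ugt8a and Fa2h encode the enzymes that make galactosylceramide and its 2-hydroxylated form, the characteristic lipids of myelin.

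The promoters of 5 genes on which the results turn are shown because the authors' peak list covers some and not others. They are the markers Mag, Mobp and Mog, and the genes Klk6 and Il33 that differed widely between strains. Each line gives the 250 bases before an annotated start in RefSeq (build GRCm38.p6), 5′ to 3′ on the gene's strand. Capitals mark ACAAAG, the core motif of SOX factors, and CTGGCAC, a MYRF-type motif, searched on both strands. The 2 motifs do not overlap each other. ACAAAG occurs in 16.5% and CTGGCAC in 4.19% of 32851 promoters of the same length.
Mag: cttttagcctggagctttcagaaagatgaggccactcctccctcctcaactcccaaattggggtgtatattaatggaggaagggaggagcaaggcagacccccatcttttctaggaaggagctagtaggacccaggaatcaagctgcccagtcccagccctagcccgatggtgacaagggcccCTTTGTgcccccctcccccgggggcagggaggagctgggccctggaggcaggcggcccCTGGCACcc
Mobp: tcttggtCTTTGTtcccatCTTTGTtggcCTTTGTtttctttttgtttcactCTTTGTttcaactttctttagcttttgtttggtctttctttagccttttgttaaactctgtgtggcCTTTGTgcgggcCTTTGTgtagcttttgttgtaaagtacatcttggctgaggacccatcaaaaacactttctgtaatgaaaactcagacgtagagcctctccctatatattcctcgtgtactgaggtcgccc
Klk6: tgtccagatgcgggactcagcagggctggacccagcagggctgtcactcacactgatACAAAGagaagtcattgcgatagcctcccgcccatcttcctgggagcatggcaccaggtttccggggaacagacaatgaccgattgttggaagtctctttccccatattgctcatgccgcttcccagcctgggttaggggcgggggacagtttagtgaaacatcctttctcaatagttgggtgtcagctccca
Mog: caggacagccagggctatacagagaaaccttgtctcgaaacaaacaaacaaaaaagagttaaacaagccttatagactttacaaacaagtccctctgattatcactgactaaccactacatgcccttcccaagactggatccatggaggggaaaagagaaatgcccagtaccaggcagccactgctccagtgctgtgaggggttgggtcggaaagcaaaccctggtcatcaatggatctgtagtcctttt
Il33: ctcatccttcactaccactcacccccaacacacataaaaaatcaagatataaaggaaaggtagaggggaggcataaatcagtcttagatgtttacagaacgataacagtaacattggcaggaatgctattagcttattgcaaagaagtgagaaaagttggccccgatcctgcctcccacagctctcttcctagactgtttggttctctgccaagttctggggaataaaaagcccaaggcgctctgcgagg
The Mag promoter lies at chr7:30914923-30915172 on the minus strand and holds 1 match of each motif. It overlaps a peak that the authors called at chr7:30914441-30915440, and it belongs to 1 of 3 annotated Mag starts. The Mobp promoter, chr9:120149492-120149741 on the plus strand, holds 6 ACAAAG matches. The Klk6 promoter, chr7:43824294-43824543 on the plus strand, holds 1 ACAAAG match and overlaps the peak chr7:43823891-43824890. This window belongs to 1 of 2 annotated Klk6 starts and runs past 43824438, where the annotated gene begins. The Mog promoter (chr17:37023399-37023648, minus strand) and the Il33 promoter (chr19:29924863-29925112, plus strand) hold neither motif. No peak of the list overlaps the Mog, Mobp or Il33 window. The Il33 window belongs to 1 of 2 annotated starts, and the other starts of Mag, Klk6 and Il33 are not shown. A match describes these letters only, and absence says only that they are not in the window. Peaks were called by the authors on all batches in 1 index, over all cell types, so they do not describe oligodendrocytes alone. Across the genes of the oligodendrocyte pathway lists described next to the strain results, 90 of 111 (81.1%) had a promoter that overlapped a peak, against 54.3% of 26794 genes in all. Here a peak at any annotated start of a gene counted. Among the 27 genes with a promoter in the table out of the first 40 by ratio, 23 (85.2%) overlapped one.

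The share of oligodendrocytes among the nuclei of a mouse ran from 10.8% to 33.8%. It was highest in NOD/ShiLtJ, with 33.8, 23.8, 28.8 and 29.9% in batches 1 to 4 (mean 29.1% ± 4.11). It was lowest in CAST/EiJ, with 17.6, 16.6, 14.4 and 22.5% (mean 17.8% ± 3.43). The NOD/ShiLtJ mice were all above the CAST/EiJ mice. PWK/PhJ had 26.9, 18.1, 10.8 and 17.6%, the widest spread, and its mouse of batch 3 was the lowest of all 32. The remaining means were 23.9% ± 5.45 in 129S1/SvImJ, 23.2% ± 2.31 in C57BL/6, 20.8% ± 2.53 in A/J, 20.3% ± 3.16 in WSB/EiJ and 18.6% ± 3.88 in NZO/HlLtJ (SD, n = 4 each). The strains differed in a permutation test within batches (100000 resamples, two-sided, F = 3.10, p = 0.0168, Benjamini-Hochberg adjusted p = 0.0399 over 5 measures). Among non-neuronal nuclei the share ran from 46.8% ± 4.44 in NZO/HlLtJ to 61.9% ± 6.36 in NOD/ShiLtJ (permutation test within batches, p = 0.0240, adjusted p = 0.0399). A share cannot tell more oligodendrocytes from fewer nuclei of other types. Neither share passed when mice were permuted across batches (adjusted p = 0.120 for both, permutation test). The share of all nuclei did not pass without batch 2, 3 or 4 (adjusted p = 0.106, 0.137 and 0.409), nor the share of non-neuronal nuclei without batch 2 or 4 (adjusted p = 0.156 and 0.409, permutation tests). Nor did the former pass when adjusted over the shares of all 18 clusters, a setting added after seeing the data (adjusted p = 0.0755), or the latter with nuclei of at least 1000 UMIs (adjusted p = 0.0544, permutation tests).

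**Figure D1:**
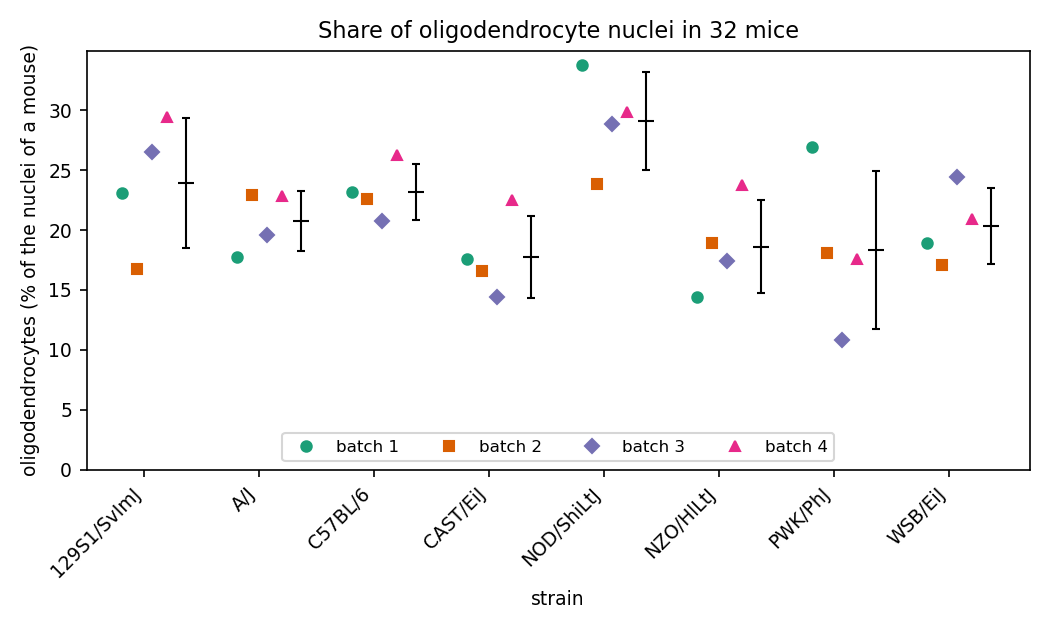
Oligodendrocyte share of all annotated nuclei of a mouse (y axis, percent) by strain (x axis). Points are mice, coloured by batch, and black marks give the mean and SD of 4 mice, from 17.8% (CAST/EiJ) to 29.1% (NOD/ShiLtJ).

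Oligodendrocytes per precursor nucleus ran from 20.5 ± 2.58 in CAST/EiJ to 29.8 ± 15.3 in WSB/EiJ and did not pass (permutation test within batches, p = 0.550). The precursor cluster held 488 nuclei in all 32 mice, which limits this ratio. Median UMIs per oligodendrocyte nucleus ran from 1482 ± 209 (PWK/PhJ) to 1673 ± 235 (129S1/SvImJ) (permutation test within batches, adjusted p = 0.0399), a difference in depth that accompanies the comparisons of genes between strains. It did not pass when mice were permuted across batches (adjusted p = 0.999) or without batch 1, 2 or 4 (adjusted p = 0.262, 0.0520 and 0.409, permutation tests). The median mitochondrial share of a nucleus lay between 3.33% ± 1.15 (A/J) and 3.71% ± 1.05 (C57BL/6) and did not pass (permutation test within batches, p = 0.401, adjusted p = 0.501).

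To ask which genes oligodendrocytes of the 8 strains express at different levels, counts were summed per mouse and the strain term of edgeR's quasi-likelihood model was tested with the batch as a block. Of 9082 genes tested, 3161 (34.8%) passed an adjusted p of 0.05, and such genes are termed called. Of the 1945 genes of at least 100 CPM, where more counts make a difference easier to detect, 1067 (54.9%) were called. The span of a gene is the log2 ratio of its highest to its lowest strain mean after adding 1 CPM. Its median was 0.69 over all tested genes and 0.50 over those of at least 100 CPM. With an equal number of 133 nuclei per mouse 1436 genes were called, and without batch 3, the shallowest, 2807. In simulated data made from these libraries, 172 of 197 genes changed 2-fold in 1 strain were called among 8753 genes tested (87.3%). The simulation held no batch effect and few changed genes, so this share may differ in the real data.

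The mice grouped by strain. Every one of the 32 mice correlated more with its own strain than with the others, and the first principal component, 15.6% of the variance, had 88.7% of its own variance between strains. The second component (10.8%) had 66.5% of its variance between batches. The mice of batch 3 in CAST/EiJ and PWK/PhJ, the 2 smallest libraries, stood apart from their strain on the first component, at -50.8 (the other 3 at -28.2 to -25.0) and -51.0 (-21.9 to -18.6). Without batch 3, 1454 genes were called in CAST/EiJ and 1380 in PWK/PhJ by the contrasts described next. For the median gene of at least 10 CPM, 32.2% of the variance lay between strains, where 22.6% would be expected with no strain information.

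CAST/EiJ and PWK/PhJ, the wild-derived strains of the castaneus and musculus subspecies, had the most called genes. Reads of all strains were aligned to mm10, per the submitters' processing notes, and those of diverged strains may map less well. The part of mapping in the counts of called genes was not tested. Against the mean of the other 7 strains, 1546 genes were called in CAST/EiJ (17% of those tested), 858 higher (9.45%) and 688 lower (7.58%). In PWK/PhJ they were 1427 (15.7%), 671 higher (7.39%) and 756 lower (8.32%). WSB/EiJ, wild-derived of the domesticus subspecies, had 921 (10.1%), 532 higher (5.86%) and 389 lower (4.28%). The laboratory strains had fewer with all mice, but without batch 3 NOD/ShiLtJ (755) and A/J (648) had more than WSB/EiJ (625). NOD/ShiLtJ had 854 (9.4%), 504 higher (5.55%) and 350 lower (3.85%). C57BL/6 had 748 (8.24%), with 5.25% of the tested genes higher and 2.98% lower. NZO/HlLtJ had 744 (8.19%), with 5.01% higher and 3.18% lower. A/J had 727 (8%), with 5.16% higher and 2.84% lower. 129S1/SvImJ had 662 (7.29%), with 4.98% higher and 2.31% lower. Fewer mice lowered these counts, to 485 in C57BL/6 without batch 1, 484 in A/J without batch 2, and 436 in 129S1/SvImJ, 557 in NOD/ShiLtJ and 601 in WSB/EiJ without batch 4. With 133 nuclei per mouse 778 genes were called in CAST/EiJ and 683 in PWK/PhJ. Among the genes called in CAST/EiJ, all 4 mice lay above all 28 others for 124 and under them for 64. Among those called in PWK/PhJ this held for 68 and 80. In each other strain it held for 15 to 24 called genes above and 4 to 16 under. Between pairs of strains the median was 862.5 called genes over 28 pairs, and the fewest, 489, separated A/J from NOD/ShiLtJ. These comparisons share mice and are not independent of each other.

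**Figure D2:**
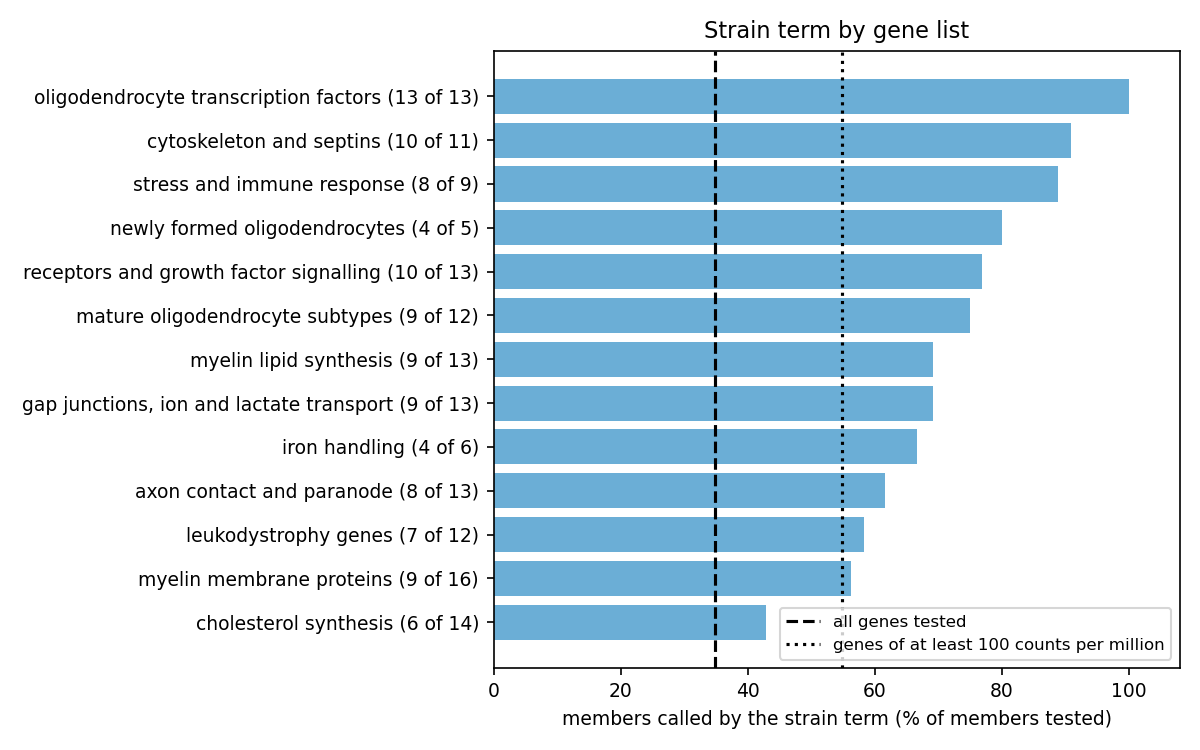
Percent of tested genes called by the strain term (x axis) in each of 13 gene lists for oligodendrocyte functions (y axis). The dashed line is the 34.8% of all tested genes and the dotted line the 54.9% of genes of at least 100 CPM; transcription factors reach 100% and cholesterol synthesis 42.9%.

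Of the 16 myelin membrane proteins, 9 were called (56.3%, against 34.8% of all genes and 54.9% of those of at least 100 CPM, to which 15 of the 16 belong). Their median span was 0.41, under the 0.50 of genes at such levels. Mbp, Mog, Mag, Mal, Plekhb1, Pllp and Cnp did not pass. Mbp had strain means from 7364 CPM (WSB/EiJ) to 7852 CPM (129S1/SvImJ) (edgeR adjusted p = 0.896). Mog ran from 1147 to 1263.5 CPM (edgeR adjusted p = 0.803) and Mag from 1059 to 1247 CPM (edgeR adjusted p = 0.333). Their levels differed more between batches than between strains. In batch 3 the mean of 8 mice was 1563 CPM for Mog and 1496 CPM for Mag, against 969 to 1238 CPM and 974 to 1170 CPM in the other batches. Mbp was lowest in batch 3, at 6726 CPM against 7630 to 8220 CPM.

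Mobp was the called marker. In CAST/EiJ it had 2866, 2819, 2319 and 2614 CPM in batches 1 to 4, the order used throughout. In NZO/HlLtJ, the strain with the lowest mean, it had 1445, 1371, 1327 and 1496 CPM. All 4 CAST/EiJ mice were above all 4 NZO/HlLtJ mice, though 1 WSB/EiJ mouse (2429 CPM) reached into the CAST/EiJ range. The difference from the mean of the other strains was 0.65 ± 0.06 on the log2 scale in CAST/EiJ and -0.40 ± 0.07 in NZO/HlLtJ (edgeR adjusted p of the strain term 1.39e-15). Tspan2, a tetraspanin, was also highest in CAST/EiJ (976 ± 53.4 CPM) and lowest in A/J (660.0 ± 80.8 CPM, edgeR adjusted p = 5.06e-06). Cldn11, which forms the tight junctions between myelin layers, was lowest in CAST/EiJ (584 ± 37.7 CPM) and highest in PWK/PhJ (1023 ± 319 CPM). Cd9, another tetraspanin, was highest in PWK/PhJ (499 ± 133 CPM) and lowest in C57BL/6 (241 ± 58.6 CPM). With the batch in the model both Cd9 and Cldn11 passed (edgeR adjusted p = 3.37e-15 and 1.93e-08). Their mice of different strains overlapped, and neither passed without the batch in the model (edgeR adjusted p = 0.206 and 0.262). In that fit 2 of the 16 were called, and 5 without batch 4.

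**Figure D3:**
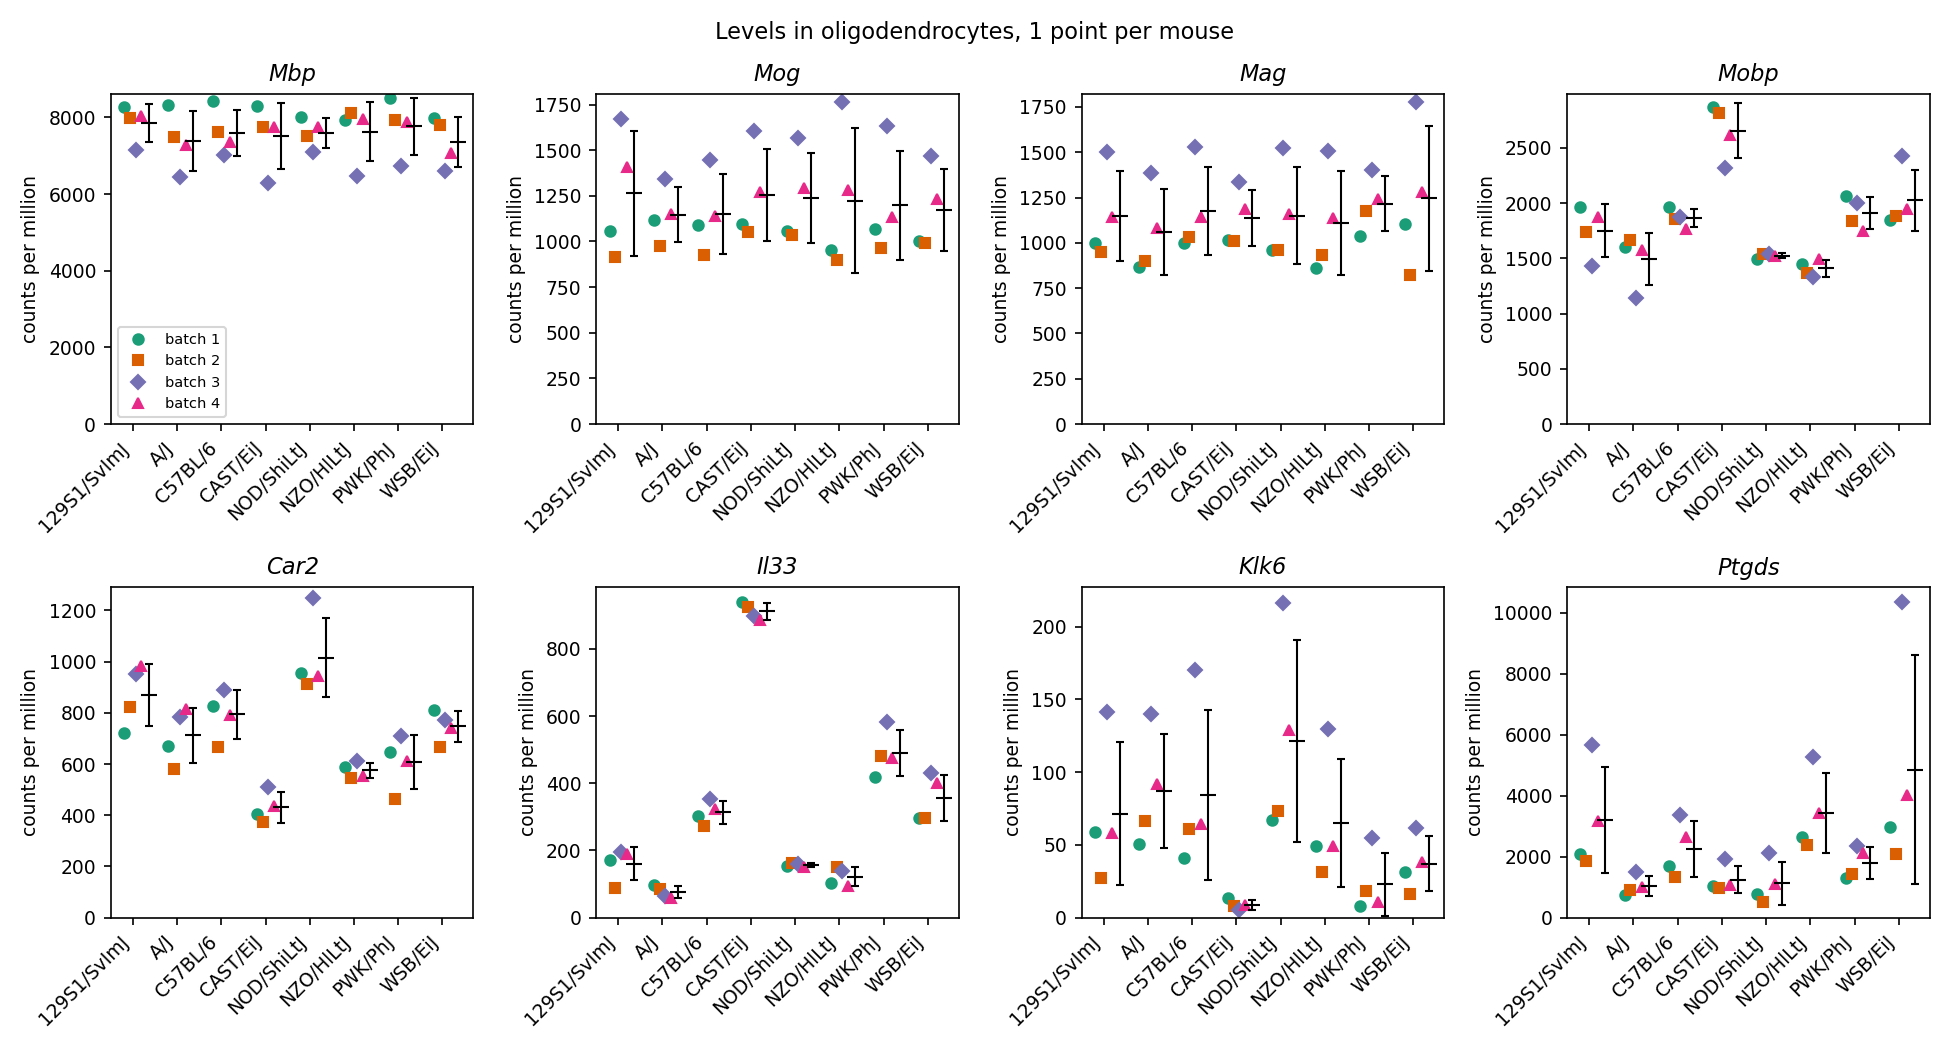
CPM (y axis, linear from 0) in oligodendrocytes of each of 32 mice by strain (x axis) for Mbp, Mog, Mag, Mobp, Car2, Il33, Klk6 and Ptgds. Points are mice, coloured by batch, with the mean and SD of 4 mice in black; the strains lie level for Mbp, Mog and Mag, whereas Il33 is highest in CAST/EiJ (912 CPM) and Klk6 lowest there (8.82 CPM).

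All 13 transcription factors of the oligodendrocyte list were called, 7 of them of at least 100 CPM, against 34.8% of all genes and 54.9% of those at such levels, with a median span of 0.90. The equal-nuclei setting called 8 of them. Zfp488, a zinc finger protein that partners with Olig2, had the largest range. It had 74.8, 99.6, 57.2 and 84.8 CPM in CAST/EiJ and 0, 2.74, 6.55 and 0 CPM in A/J (edgeR adjusted p = 3.25e-22). PWK/PhJ (65.7 ± 13.4 CPM) and 129S1/SvImJ (44.4 ± 19.9 CPM) were high as well, and the mice of NOD/ShiLtJ and NZO/HlLtJ overlapped those of A/J at the low end. Sox8 and Sox10 are related factors that drive myelin genes. Sox8 was lowest in PWK/PhJ, with 59.9, 47.7, 60.8 and 76.9 CPM, all under the other 28 mice (-1.09 ± 0.14 on the log2 scale, edgeR adjusted p = 1.07e-09). Sox10 was lowest in CAST/EiJ (229 ± 66.8 CPM) and highest in NZO/HlLtJ (371 ± 51.6 CPM), with overlapping mice. It passed with the batch in the model (edgeR adjusted p = 1.31e-08) and not without it (edgeR adjusted p = 0.147). St18, a zinc finger factor of the Myt family, had 2663 ± 109.9 CPM in CAST/EiJ against 3574 ± 93.6 CPM in NOD/ShiLtJ.

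The direction of these factors differed by strain. In WSB/EiJ 5 were lower and none higher than in the other strains, namely Prox1, Zeb2, Sox10, Sox8 and Tcf7l2 (4.28% of all genes were called lower there). NOD/ShiLtJ had 6 higher (St18, Prox1, Nkx2-2, Nkx6-2, Sox10 and Sox8) and 1 lower, Zfp488, where 5.55% and 3.85% of all genes were called. In PWK/PhJ 4 were lower (St18, Nkx6-2, Sox8 and Myrf) and 1 higher, where 8.32% and 7.39% of all genes were called. In CAST/EiJ 4 were lower and 3 higher, where 7.58% and 9.45% were. NZO/HlLtJ had 4 higher (Sox10, Olig2, Olig1 and Tcf7l2) and 1 lower, where 5.01% and 3.18% were, and 129S1/SvImJ had 3 higher (St18, Nkx6-2 and Zfp488) and 0 lower, where 4.98% and 2.31% were. A/J had 1 in each direction and C57BL/6 none. The precursor marker Lhfpl3 was called lower in NOD/ShiLtJ (-0.71 on the log2 scale) and higher in WSB/EiJ (1.00). Only this 1 of the 4 precursor markers had enough counts to be tested. Its level was 1953 CPM in the precursor cluster, but also 287 CPM in Drd1+ neurons and 394 CPM in Nxph1+ interneurons. In oligodendrocytes it had 25.7 CPM, the highest of the 4. The 4 precursor markers summed to 26.3 to 39.9 CPM in NOD/ShiLtJ and 43.8 to 64.1 CPM in WSB/EiJ mice, with 46.1 to 56.4 CPM in PWK/PhJ mice, and their part in these calls was not tested. Myrf, which binds the enhancers of myelin genes, was thus lower in CAST/EiJ and PWK/PhJ.

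Of 13 genes of myelin lipid synthesis, 9 were called (69.2%, against 34.8% of all genes). Of the 10 of at least 100 CPM 7 were, against 54.9% of genes at such levels. The median span of the list was 0.64. Degs1, the desaturase that turns dihydroceramide into ceramide, had 297, 440.3, 498 and 414 CPM in PWK/PhJ and strain means of 161 to 200.3 CPM elsewhere. The difference in PWK/PhJ was 1.20 ± 0.09 on the log2 scale (edgeR adjusted p = 2.24e-21), though single NOD/ShiLtJ and NZO/HlLtJ mice reached 311 and 318 CPM. Ugt8a, which adds galactose to ceramide, was also highest in PWK/PhJ, with 1460.5, 1334, 1434 and 1289 CPM, above all 28 other mice (edgeR adjusted p = 2.11e-09). Fa2h, which hydroxylates the fatty acid of these lipids, was lowest in PWK/PhJ instead (493 ± 81.01 CPM, against 704 ± 159 CPM in C57BL/6). Aspa, which releases acetate from N-acetylaspartate, was lowest in CAST/EiJ (659.6 ± 116 CPM) and highest in A/J (1137 ± 206 CPM). In PWK/PhJ 4 genes of the list were higher (Degs1, Ugt8a, Sptlc2 and Scd2) and 3 lower (Cers2, Fa2h and Aspa), where 7.39% and 8.32% of all genes were called.

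Cholesterol synthesis was the list with the smallest called share, 6 of 14 tested genes (42.9%, above the 34.8% of all genes), with a median span of 0.74, and 1 of the 14 reached 100 CPM. The count fell to 3 without batch 1, without batch 3 and with equal nuclei. Dhcr7, which catalyses the last reduction to cholesterol, had 60.99, 59.01, 72.9 and 46.97 CPM in PWK/PhJ and 15.9, 14.9, 15.3 and 17.1 CPM in 129S1/SvImJ (edgeR adjusted p = 1.12e-10). The 129S1/SvImJ mice were under all other mice. Msmo1, a sterol demethylating oxidase, was highest in NZO/HlLtJ (146 ± 65.9 CPM) and lowest in PWK/PhJ (76.3 ± 20.7 CPM). Cyp51, the lanosterol demethylase, ran from 41.5 ± 6.65 CPM (CAST/EiJ) to 74.5 ± 11.2 CPM (WSB/EiJ) and did not pass without batch 4 or with equal nuclei (edgeR adjusted p = 0.0741 and 0.0606). Nsdhl, a sterol dehydrogenase, passed in all mice (edgeR adjusted p = 0.0173) but failed with any 1 batch left out (edgeR adjusted p = 0.0507 to 0.108). WSB/EiJ had 4 genes of the list higher, among them Dhcr7, Msmo1 and Sqle, and none lower, beside 5.86% of all genes called higher there.

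Of 13 genes for contact with the axon and the paranode, 8 were called (61.5%, against 34.8% of all genes), and 7 of the 10 of at least 100 CPM (54.9% of genes there), with a median span of 0.57. Ninj2, an adhesion protein of glia, had the largest range. It had 43.2, 23.9, 26.0 and 37.1 CPM in CAST/EiJ, under all 28 other mice, 74.3, 125, 85.1 and 87.5 CPM in PWK/PhJ and 515, 412, 550.4 and 441 CPM in C57BL/6 (edgeR adjusted p = 9.85e-21). The 4 PWK/PhJ mice lay between CAST/EiJ and nearly all others, overlapping WSB/EiJ (119 to 216 CPM). Nfasc, whose glial form anchors the paranode, ran from 492 ± 73.7 CPM (PWK/PhJ) to 764 ± 92.02 CPM (WSB/EiJ). Cadm1, an adhesion protein of the internode, was highest in C57BL/6 (299.9 ± 25.2 CPM), whose mice were above all others, and lowest in WSB/EiJ (160.1 ± 43.3 CPM). Jam3, a junction protein, ran from 309 ± 30.3 CPM (C57BL/6) to 470.3 ± 54.2 CPM (PWK/PhJ).

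Of 11 tested genes of the cytoskeleton and septins, 10 were called (90.9%, against 34.8% of all genes), and 9 of the 10 of at least 100 CPM (54.9% of genes there), with a median span of 0.53, and 6 without the batch in the model. Gsn, gelsolin, which severs actin filaments, ran from 172 ± 38.2 CPM (WSB/EiJ) to 379 ± 53.8 CPM (CAST/EiJ). It passed with the batch in the model (edgeR adjusted p = 2.28e-12) and not without it (edgeR adjusted p = 0.0915). Dock10, an activator of small GTPases, ran from 2042 ± 319 CPM (CAST/EiJ) to 2959 ± 306 CPM (C57BL/6). Ank3, which encodes ankyrin G, was lowest in 129S1/SvImJ (1233 ± 142 CPM) and highest in CAST/EiJ (1781 ± 87.6 CPM). Pip4k2a, a phosphoinositide kinase, ran from 453 ± 43.5 CPM (NOD/ShiLtJ) to 696 ± 119.6 CPM (WSB/EiJ, edgeR adjusted p = 3.33e-07). Fyn, a kinase that relays axonal signals to myelin, was highest in PWK/PhJ (133 ± 15.7 CPM) and lowest in NOD/ShiLtJ (73.9 ± 11.5 CPM) and NZO/HlLtJ (74.01 ± 4.51 CPM).

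Of 13 genes for gap junctions, ion and lactate transport, 9 were called (69.2%, against 34.8% of all genes), and 6 of the 7 of at least 100 CPM (54.9% of genes there), with a median span of 0.74. In CAST/EiJ 7 were higher (Kcnj10, Slc16a1, Slc2a1, Slco3a1, Hepacam, Slc12a2 and Gjb1) and 1 lower, Gjc3, where 9.45% and 7.58% of all genes were called. Astrocytes also express several of these genes. The astrocyte marker Slc1a3, the 1 called of 7 astrocyte markers, was called higher in CAST/EiJ and PWK/PhJ too. It was called lower in NOD/ShiLtJ, C57BL/6 and WSB/EiJ. The 7 summed to 492 to 925 CPM in CAST/EiJ mice, within the 354 to 1075 CPM of all mice, and their part in these values was not tested. Slc16a1 is the lactate transporter MCT1, Slc2a1 the glucose transporter and Kcnj10 the potassium channel Kir4.1. Hepacam, an adhesion protein that guides chloride channels to cell contacts, was still highest in PWK/PhJ (484 ± 105 CPM) and lowest in NOD/ShiLtJ (249 ± 13.3 CPM). Gjc3, the connexin Cx29, ran from 452 ± 94.9 CPM (CAST/EiJ) to 757 ± 83.5 CPM (NZO/HlLtJ). Slco3a1, an organic anion transporter, ran from 184 ± 48.3 CPM (PWK/PhJ) to 328 ± 46.5 CPM (CAST/EiJ). Atp1b3, a subunit of the sodium pump, was lowest in NZO/HlLtJ (156 ± 38.2 CPM).

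Of 6 tested genes of iron handling, 4 were called (66.7%, against 34.8% of all genes), and 2 of the 3 of at least 100 CPM (54.9% of genes there), with a median span of 1.03. Trf, transferrin, had 2101, 1617, 3135 and 2483 CPM in WSB/EiJ and 1207, 1115, 1906 and 1469 CPM in NOD/ShiLtJ. WSB/EiJ was the higher of the 2 strains in each batch, though across batches they overlapped. Trf passed with the batch in the model (edgeR adjusted p = 3.72e-15) and not without it (edgeR adjusted p = 0.0626). Tfrc, its receptor, had 43.3, 52.7, 42.5 and 41.6 CPM in WSB/EiJ and was lowest in PWK/PhJ (16.4 ± 5.45 CPM, edgeR adjusted p = 2.14e-04). Ftl1, the ferritin light chain, was lowest in CAST/EiJ (124 ± 39.8 CPM). It did not pass without batch 1 or without the batch in the model (edgeR adjusted p = 0.0554 and 0.228). Cp, ceruloplasmin, was highest in CAST/EiJ (20.4 ± 1.67 CPM) and did not pass without batch 3 or 4 (edgeR adjusted p = 0.162 and 0.0974), with nuclei of at least 1000 UMIs (0.0523), without the batch in the model (0.0528) or by DESeq2 (adjusted p = 0.0649). Without the batch in the model 1 of the 6 was called, and 2 without batch 1.

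Of 13 tested receptors and growth factor genes, 10 were called (76.9%, against 34.8% of all genes), and 8 of the 10 of at least 100 CPM (54.9% of genes there), with a median span of 0.65. Adgrb3, an adhesion receptor for complement-like C1q proteins, had 79.8, 136, 24.3 and 72.6 CPM in PWK/PhJ and 646, 584, 655 and 680.2 CPM in NOD/ShiLtJ (edgeR adjusted p = 4.54e-12). The former mice were under and the latter above all others. Grm7, a metabotropic glutamate receptor, had 583, 633, 477 and 630.3 CPM in C57BL/6, above all 28 other mice, and 39.9, 56.7, 36.5 and 23.5 CPM in PWK/PhJ (edgeR adjusted p = 3.05e-09). Erbb4, a neuregulin receptor, ran from 1836 ± 178 CPM (CAST/EiJ) to 2875 ± 511 CPM (NZO/HlLtJ). Lpar1, a lysophosphatidic acid receptor of myelinating cells, ran from 196 ± 15.97 CPM (WSB/EiJ) to 416 ± 51.7 CPM (NZO/HlLtJ).

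Of 10 genes of newly formed oligodendrocytes, 5 had enough counts to be tested (Gpr17, Neu4, Cemip2, Rras2 and Mycl did not) and 4 were called (34.8% of all genes were), with a median span of 0.84. Itpr2, an intracellular calcium channel, had 71.5, 67.7, 67.6 and 97.1 CPM in CAST/EiJ and 18.01, 16.6, 7.18 and 5.98 CPM in NZO/HlLtJ (edgeR adjusted p = 4.98e-16). These did not overlap. Bcas1 went the other way between some strains. It had 813, 801, 794 and 869 CPM in NZO/HlLtJ, above all 28 other mice, and 546, 483, 359 and 463 CPM in WSB/EiJ (edgeR adjusted p = 2.03e-11). Tcf7l2, a Wnt effector that is high as cells differentiate, likewise ran from 37.9 ± 10.5 CPM (WSB/EiJ) to 89.4 ± 23.1 CPM (NZO/HlLtJ). After thinning, Tcf7l2 was detected in 29.3% of astrocytes and 5.25% of oligodendrocytes, Itpr2 in 20.9% and 3.59% and Fyn in 12.3% and 8.47%. Bcas1 (14.5% and 45.5%) and Enpp6 (0.41% and 14.3%) went the other way. The part of astrocyte RNA in the levels of these genes was not tested. The list did not move as one group in NZO/HlLtJ, where 2 genes were higher (Bcas1 and Tcf7l2) and 2 lower (Itpr2 and Fyn). Of all genes, 5.01% were called higher and 3.18% lower there.

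Of 12 genes that mark subtypes of mature oligodendrocytes, 9 were called (75%, against 34.8% of all genes), and 8 of the 9 of at least 100 CPM (54.9% of genes there), with a median span of 0.57, and the widest differences were those of Il33 and Klk6. Il33, an alarmin cytokine kept in the nucleus (chromosome 19 from 29925113 to 29960718, GRCm38), had 940.5, 924, 899.6 and 885 CPM in CAST/EiJ. It had 419, 481, 583 and 474 CPM in PWK/PhJ and 97.5, 85.01, 65.5 and 59.1 CPM in A/J. The CAST/EiJ mice were above all 28 others. The means of the remaining strains were 356 ± 69.4 CPM in WSB/EiJ, 314 ± 34.6 CPM in C57BL/6, 161 ± 50.4 CPM in 129S1/SvImJ, 157 ± 5.61 CPM in NOD/ShiLtJ and 122 ± 28.2 CPM in NZO/HlLtJ. Mice of neighbouring strains in this order overlapped, except that PWK/PhJ lay under CAST/EiJ, 129S1/SvImJ under C57BL/6 and NZO/HlLtJ just under NOD/ShiLtJ. Against the other strains the log2 difference was 2.19 ± 0.09 in CAST/EiJ, 1.13 ± 0.11 in PWK/PhJ and -1.86 ± 0.13 in A/J (edgeR adjusted p of the strain term 2.22e-22).

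The difference in Il33 was also seen as a share of nuclei. After thinning to 1000 UMIs, Il33 was detected in 52.2% ± 2.62 of oligodendrocyte nuclei of CAST/EiJ mice and in 6.86% ± 2.12 of those of A/J mice (SD, n = 4). Over all strains it was detected in 20.3% of oligodendrocytes (95% Wilson interval 19.6 to 21.1, counting error only and not the spread between mice), 6.02% of astrocytes and 0.461% of Drd1+ neurons. Without thinning the shares were 27.7%, 13.02% and 2.89%.

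Klk6, a secreted serine protease, was low where Il33 was highest, though in C57BL/6 both were called higher (log2 difference 0.42 ± 0.11 for Il33 and 0.81 ± 0.16 for Klk6). It had 13.3, 7.97, 5.200 and 8.83 CPM in CAST/EiJ, 7.76, 18.2, 54.7 and 10.7 CPM in PWK/PhJ and 66.9, 72.9, 216 and 129 CPM in NOD/ShiLtJ. The CAST/EiJ mice were under all mice of the strains other than PWK/PhJ. The log2 difference from the other strains was -2.37 ± 0.29 in CAST/EiJ, -1.59 ± 0.26 in PWK/PhJ and 1.49 ± 0.13 in NOD/ShiLtJ (edgeR adjusted p of the strain term 2.93e-21). Klk6 was detected in 4.24% of thinned oligodendrocyte nuclei (95% Wilson interval 3.88 to 4.63, counting error only) and in 0.117% of Drd1+ neurons. The share was 0.333% ± 0.275 in CAST/EiJ and 7.97% ± 3.72 in NOD/ShiLtJ. The gene also moved with batch, with a mean of 115 CPM in batch 3 against 37.6 to 56.3 CPM in the other batches.

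Car2, carbonic anhydrase 2, was lowest in CAST/EiJ (404, 373, 509.6 and 435 CPM) and highest in NOD/ShiLtJ (957, 913, 1248 and 945 CPM, edgeR adjusted p = 2.87e-20). The mice of these 2 strains did not overlap. Ptgds, the prostaglandin D2 synthase, had 2975, 2085, 10347 and 4008 CPM in WSB/EiJ and 746, 918, 1502 and 1002 CPM in A/J (edgeR adjusted p = 6.22e-09). The mouse of batch 3 was the highest of its strain in all 8 strains, and the mean was 4064 CPM in batch 3 against 1432 to 2321 CPM in the others. Ptgds is also made at high levels by meningeal cells. Summed markers of fibroblasts (Dcn, Col1a2 and Lum) were at 0 to 15.9 CPM in the oligodendrocyte libraries, and their part in the Ptgds values was not tested.

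Of 9 tested stress and immune genes, 8 were called (88.9%, against 34.8% of all genes), with a median span of 3.11, the widest of the lists. Il33 belongs to this list too. The count was 5 without batch 4 and 4 with equal nuclei per mouse. C4b, a complement component, had 94.6, 116, 44.9 and 34.4 CPM in NZO/HlLtJ, above all 28 other mice, and a mean of 3.67 ± 1.17 CPM in A/J (edgeR adjusted p = 2.92e-20). Serpina3n, a protease inhibitor, had 18.2, 29.7, 25.6 and 26.2 CPM in 129S1/SvImJ, and every other mouse was under these (strain means of at most 4.06 CPM, edgeR adjusted p = 3.24e-11). Both genes have close paralogs with which counts may be shared. Sgk1, a kinase induced by glucocorticoids, had 629.8, 713, 322 and 482 CPM in CAST/EiJ, 379, 463, 761 and 453 CPM in WSB/EiJ and 64.8, 37.2, 73.9 and 68.6 CPM in NOD/ShiLtJ (edgeR adjusted p = 1.69e-06). The former 2 strains were above the last without overlap. Fkbp5, another glucocorticoid target named here after its calls were seen, was called higher in these 2 strains and in 129S1/SvImJ and lower in NOD/ShiLtJ. Sgk1 had these calls as well and was also lower in NZO/HlLtJ (-1.61 ± 0.43 on the log2 scale, edgeR adjusted p = 0.0199), where Fkbp5 was not called.

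Of 12 tested leukodystrophy genes, whose loss damages white matter in people, 7 were called (58.3%, against 34.8% of all genes and 54.9% of those of at least 100 CPM, to which 6 of the 12 belong, all 6 called), with a median span of 0.49 against 0.50 for genes of at least 100 CPM. Psap, the precursor of the saposins that help break down myelin lipids, ran from 215 ± 17.7 CPM (C57BL/6) to 282 ± 27.01 CPM (WSB/EiJ) and did not pass without batch 4 or with equal nuclei (edgeR adjusted p = 0.0636 and 0.423). With equal nuclei, or without the batch in the model, 4 of the 12 were called. Aspa and Fa2h are on this list and are described above.

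The genes with the strongest strain term were mostly not myelin genes. Cwc22, a splicing factor (chromosome 2 from 77881159 to 77946356), had 1395, 1372, 1315 and 1351 CPM in WSB/EiJ and strain means of 21.9 to 47.4 CPM in the others (log2 difference 5.30 ± 0.07, edgeR adjusted p of the strain term 3.48e-76). Some mouse strains are known to carry extra copies of Cwc22, and counts of copies cannot be told apart here. Npsr1, the neuropeptide S receptor (chromosome 9 from 24097912 to 24317590), had 849, 631, 474 and 659.5 CPM in NZO/HlLtJ, 161, 138, 176 and 192 CPM in PWK/PhJ and 20.4, 19.8, 28.97 and 28.5 CPM in 129S1/SvImJ. In the other 5 strains its means were at most 1.57 CPM, so 3 strains stood apart at 3 separate levels (edgeR adjusted p = 1.99e-69). Nkain2, a partner of the sodium pump and one of the most counted genes, had 1281, 1189, 1477 and 1325 CPM in CAST/EiJ, a mean of 6833 CPM in PWK/PhJ and 9541 to 11208 CPM elsewhere. CAST/EiJ was thus under all other mice, and PWK/PhJ under all those of the remaining 6 strains.

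Other genes of this group split the strains in other ways. Ndst4, a heparan sulfate enzyme, was high in CAST/EiJ (709 ± 37.9 CPM) and PWK/PhJ (678 ± 105 CPM), intermediate in A/J (164 ± 48.4 CPM) and at most 30.4 CPM elsewhere. Cntn3, a contactin, was at 196 to 331 CPM in A/J, 129S1/SvImJ, C57BL/6 and WSB/EiJ and at most 10.8 CPM in the other 4 strains. Pde4d, which degrades cyclic AMP, was high in PWK/PhJ (1682 ± 146 CPM), NZO/HlLtJ (1646 ± 51.9 CPM) and A/J (1054 ± 112 CPM) and lowest in C57BL/6 (199 ± 39.5 CPM). It was called higher in CAST/EiJ as well. Mylk, a myosin light chain kinase, was high in WSB/EiJ (196 ± 5.82 CPM) and 129S1/SvImJ (139.7 ± 13.3 CPM) and at most 18.1 CPM elsewhere. Cdh2, N-cadherin, was high in NOD/ShiLtJ (487 ± 58.03 CPM), C57BL/6 (461 ± 87.4 CPM) and WSB/EiJ (354 ± 36.3 CPM), and at 54.8 to 109.7 CPM in the other 5. Tenm2, a teneurin, was highest in 129S1/SvImJ (1260.2 ± 80.0 CPM) and lowest in NZO/HlLtJ (135 ± 44.2 CPM). Myo3a, an actin motor, was highest in CAST/EiJ (627 ± 59.7 CPM), followed by PWK/PhJ (196 ± 38.4 CPM), with at most 41.6 CPM elsewhere. A330049N07Rik, one of the transcripts that set oligodendrocytes apart from other clusters, was at 172 to 464 CPM in 6 strains, at 6.18 CPM in PWK/PhJ and had 1 count in all 4 NOD/ShiLtJ mice.

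**Figure D4:**
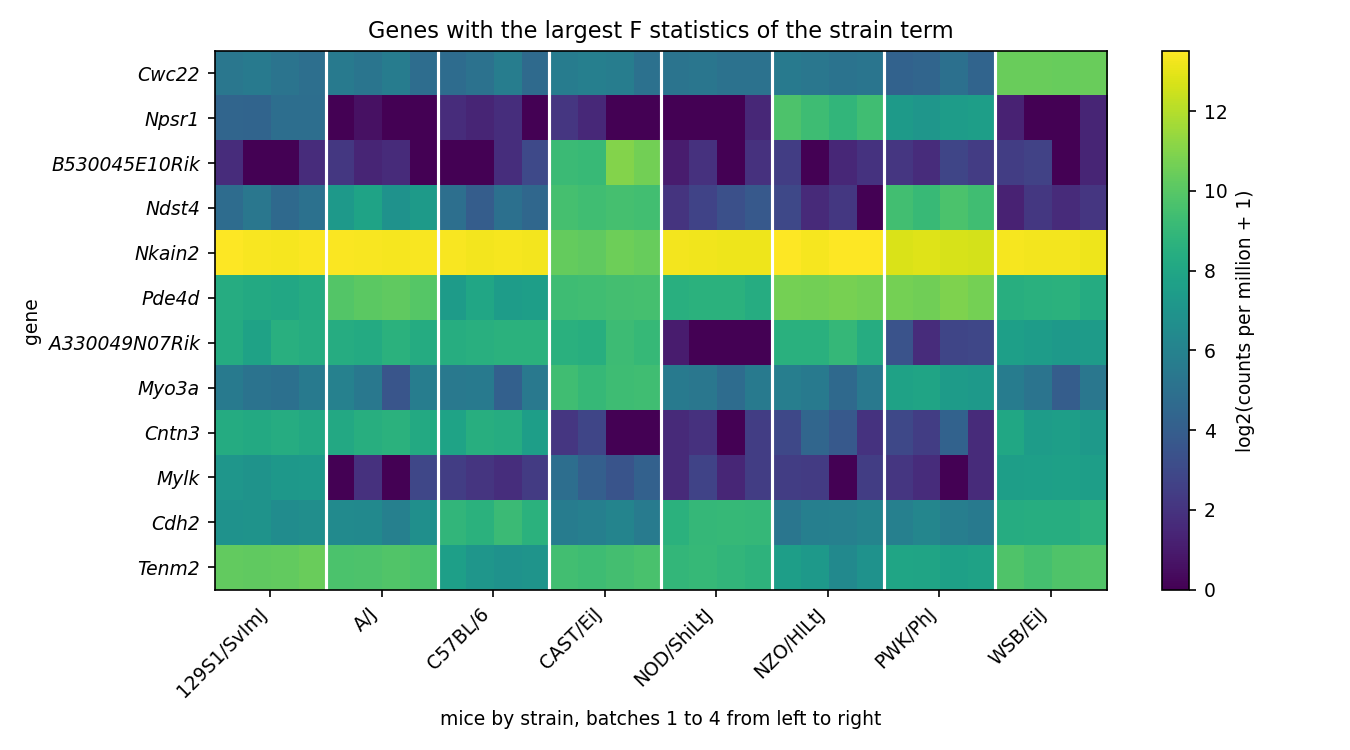
Heat map of log2(CPM + 1) for the 12 genes with the largest F of the strain term (rows) in each of 32 mice (columns, grouped by strain). Most genes have a like shade in the 4 mice of a strain, for example Cwc22 in WSB/EiJ (1358 CPM on average) and Npsr1 in NZO/HlLtJ (653 CPM), though Mylk in NZO/HlLtJ runs from 0 to 4.503 CPM.

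One gene higher and one lower was taken for each strain among those whose 4 mice lay outside all others. Zfp804b was higher in 129S1/SvImJ (2807 ± 572 CPM) and also present in WSB/EiJ (1574 ± 516 CPM) and NZO/HlLtJ (1306 ± 594 CPM), while Tmem163 was lower there (2.41 ± 2.29 CPM, against 71.5 to 111 CPM). Ctsc, cathepsin C, was higher in A/J (35.4 ± 8.34 CPM, at most 3.36 CPM elsewhere) and Polr3e, a subunit of RNA polymerase III, lower (35.2 ± 6.63 CPM). Thsd4 was higher in C57BL/6 (71.1 ± 16.8 CPM, at most 2.34 CPM elsewhere) and Shmt1, a serine hydroxymethyltransferase, lower (5.29 ± 3.34 CPM). In CAST/EiJ the transcript B530045E10Rik had 595, 546, 2090.3 and 1567 CPM, against at most 3.99 CPM in other strains. Adamts2, a procollagen protease, had 0 counts in all 4 CAST/EiJ mice and 85.5 CPM on average in the others, at least 53.1-fold higher than the floor of 3 counts over the CAST/EiJ group. Pcolce2 was lower in NZO/HlLtJ (7.33 ± 2.28 CPM, against 47.5 to 128 CPM), where Poteg had 70.7 ± 32.9 CPM and 5 counts in all other mice. Gm49083 had 22.6 ± 5.103 CPM in NOD/ShiLtJ and 3 counts in all other mice. D030045P18Rik was higher in PWK/PhJ (110.2 ± 14.0 CPM, with 17.7 CPM in CAST/EiJ). Zfp605 had 0 counts in PWK/PhJ and 24.5 CPM on average in the others, at least 16.1-fold higher than the floor of 3 counts over that group. Whether reads of these genes from CAST/EiJ or PWK/PhJ failed to map to mm10 was not tested. Gm816 was lower in WSB/EiJ (2.78 ± 3.33 CPM) and highest in PWK/PhJ (193 ± 19.02 CPM). DESeq2 did not call Poteg (adjusted p = 0.251), and Polr3e did not pass with equal nuclei (edgeR adjusted p = 0.0738).

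The 96 genes that set oligodendrocytes apart from the other clusters were chosen on counts pooled over strains, so that a gene high in 1 strain could pass through that strain, as Npsr1 did. No count of strain calls is therefore given for them, and the levels of the first by ratio are a description. 4930420G21Rik, first by ratio, had 692, 671, 1065 and 917 CPM in 129S1/SvImJ and 94.7, 55.8, 72.8 and 88.3 CPM in CAST/EiJ (edgeR adjusted p = 5.82e-17), above and under all other mice. Sec14l5, a lipid-binding protein, was lowest in PWK/PhJ (306, 277, 413 and 275 CPM), under all other mice. Cyp2j12, a cytochrome P450, had 529 ± 71.6 CPM in CAST/EiJ, 438 ± 84.8 CPM in PWK/PhJ and 145 ± 12.2 CPM in NZO/HlLtJ, whose mice were under all others. Gm44866 was highest in 129S1/SvImJ (211 ± 21.2 CPM) and Gm48508 in PWK/PhJ (182 ± 17.6 CPM). Nipal4, a magnesium transporter, ran from 60.7 ± 26.4 CPM (CAST/EiJ) to 111 ± 11.9 CPM (NOD/ShiLtJ), and Insc from 145 ± 32.5 CPM (WSB/EiJ) to 236 ± 38.5 CPM (CAST/EiJ).

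Whether strains differ in oligodendrocytes as they do in neurons was tested with the interaction of strain and cluster, with the mouse as a block. Against Drd1+ neurons, 2352 of 13943 genes (16.9%) had an interaction, and 2154 by DESeq2. With the 2 libraries of a mouse thinned to the smaller total 1449 were called, and without batch 1, 2 or 4 these were 1510, 1565 and 1548. In simulated data, 78 of 194 genes changed 2-fold in 1 strain and 1 cluster were called among 13442 tested (40.2%). Spock1, a proteoglycan (chromosome 13 from 57421195 to 57908332), had the largest F (edgeR adjusted p = 3.77e-45). On the joint scale of both clusters it had 9.55 ± 3.81 CPM in oligodendrocytes and 259.8 ± 40.7 CPM in Drd1+ neurons of CAST/EiJ, and 8.29 ± 3.99 CPM and 257 ± 28.1 CPM in WSB/EiJ. In all other strains it was higher in oligodendrocytes, from 329 ± 58.3 CPM against 247 ± 27.3 CPM in C57BL/6 to 1976 ± 384 CPM against 353 ± 64.8 CPM in PWK/PhJ. The neurons varied little where the oligodendrocytes spanned a wide range.

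Npsr1 had 580.5 ± 135 CPM in oligodendrocytes and 1.11 ± 0.462 CPM in Drd1+ neurons of NZO/HlLtJ, and 146 ± 19.9 CPM and 0.767 ± 0.567 CPM in PWK/PhJ. In CAST/EiJ and NOD/ShiLtJ the neurons were the higher of the pair, at 10.1 ± 8.99 CPM against 1.17 ± 1.44 CPM and at 4.45 ± 2.01 CPM against 0.412 ± 0.825 CPM. The neurons also had the higher mean in A/J, C57BL/6 and WSB/EiJ, where both means were at most 1.58 CPM. Cntn3 had 2.04 ± 2.53 CPM against 140.2 ± 25.7 CPM in CAST/EiJ and 2.11 ± 1.700 CPM against 227 ± 24.6 CPM in NOD/ShiLtJ. Adam11, a protein related to metalloproteases, was higher in oligodendrocytes of 129S1/SvImJ (146 ± 53.1 CPM against 14.7 ± 2.93 CPM) and NZO/HlLtJ (90.5 ± 21.2 CPM against 12.8 ± 1.62 CPM). Psat1, an enzyme of serine synthesis, was the reverse case. Its strain means in oligodendrocytes lay between 80.0 and 119 CPM, whereas in Drd1+ neurons they were 82.0 to 99.2 CPM in WSB/EiJ, A/J and NOD/ShiLtJ and 10.3 to 15.6 CPM in the other 5 strains (edgeR adjusted p of the interaction 9.39e-33). Ppp1cc, Tenm2 and Cdh2 were the others of the 8 genes with the largest F.

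**Figure D5:**
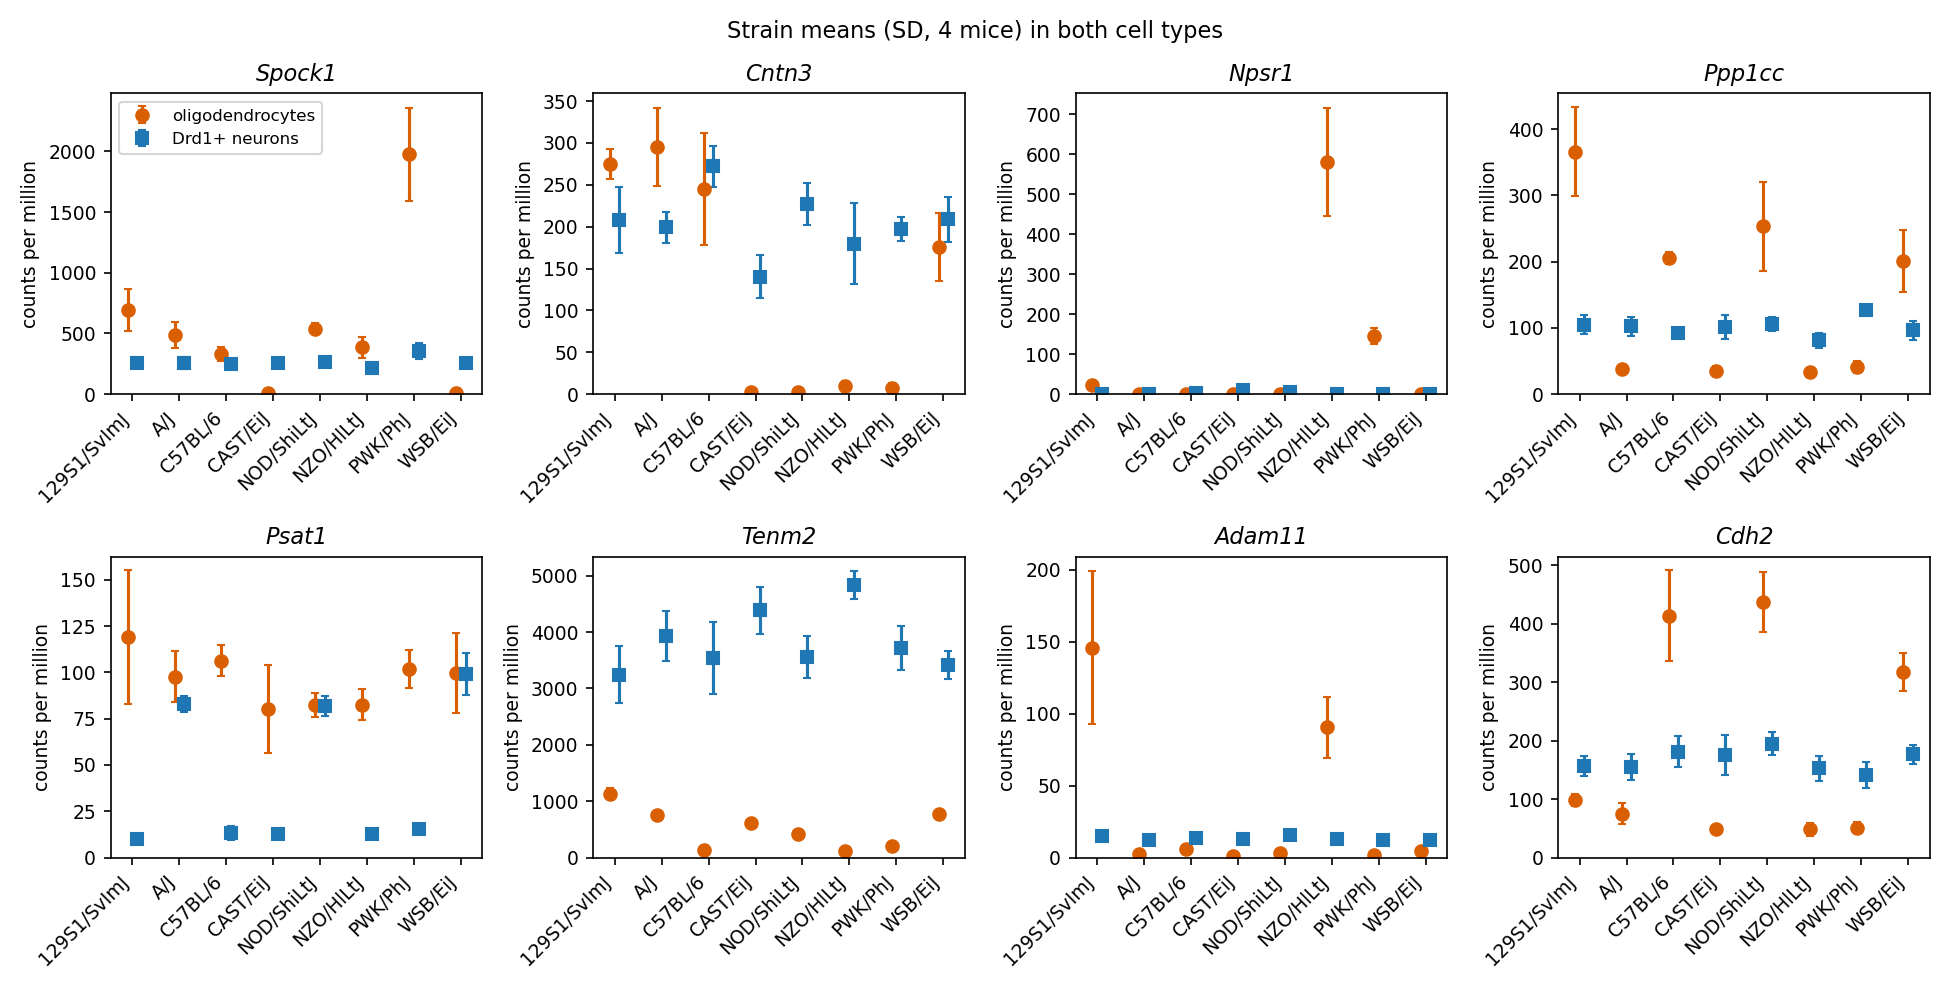
Strain mean and SD (4 mice) of CPM (y axis, linear from 0) in oligodendrocytes and in Drd1+ neurons for the 8 genes with the largest F of the interaction of strain and cluster. For Npsr1 and Adam11 the oligodendrocytes rise in single strains, and for Psat1 the Drd1+ neurons vary while oligodendrocytes stay between 80.0 and 119 CPM.

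By list, 7 of 13 genes of axon contact (Cntn2, Nfasc, Ninj2, Jam3, Nectin1, Cadm1 and Sema6a) and 7 of 13 receptors (Adgrb3, Erbb4, Lpar1, Grm3, Grm7, Igf1r and Thrb) had an interaction with Drd1+ neurons by edgeR, against 16.9% of all genes. By DESeq2 these were 7 and 5. Of the 10199 tested genes with at least 10 CPM in oligodendrocytes of the highest strain, 2124 had an interaction by edgeR. Of 16 myelin membrane proteins 1 did by edgeR, Mobp, and 2 by DESeq2. Of 13 transcription factors 1 did by edgeR, Zfp536, and 0 by DESeq2 (at an unadjusted edgeR p under 0.05 these were 6 and 2). Of these factors Sox10 had 0.99 CPM and Myrf 1.44 CPM in Drd1+ neurons, where few counts make an interaction hard to detect. A gene without an interaction is therefore not shown to vary alike in both clusters. The stress and immune list had 6 of 12 (Sgk1, Serpina3n, Fkbp5, Cdkn1a, C4b and Il33), and 6 by DESeq2. Counts of myelin genes in neuron nuclei may be free RNA, whose part was not tested.

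Against astrocytes, 1103 of 10121 genes (10.9%) had an interaction, 918 by DESeq2, and 720 and 717 without batch 1 or 2. In simulated data 39 of 197 genes changed 2-fold were called (19.8%), so small differences would mostly be missed. Cntn4, a contactin, was highest in CAST/EiJ in both clusters, at 322 ± 26.5 CPM in oligodendrocytes and 901 ± 102 CPM in astrocytes (edgeR adjusted p of the interaction 4.59e-36). In NZO/HlLtJ it had 197 ± 35.8 CPM in oligodendrocytes against 24.0 ± 7.39 CPM in astrocytes, and in A/J 97.8 ± 38.0 CPM against 13.3 ± 4.68 CPM. The other strains had at most 52.3 CPM in oligodendrocytes and 26.2 CPM in astrocytes. Lama2, a laminin chain, was lowest in CAST/EiJ in both clusters, at 2.72 ± 2.22 CPM in oligodendrocytes and 54.2 ± 25.2 CPM in astrocytes. Astrocytes of the other strains had means of 221 to 958 CPM. In the fit of oligodendrocytes alone, CAST/EiJ was under all other mice, and the other strains lay between 309 and 662 CPM. Cyp2d22, a cytochrome P450 with paralogs, was highest in PWK/PhJ oligodendrocytes (254 ± 84.2 CPM against 268 ± 47.5 CPM in astrocytes). Cdh2, Fhit, Pde4d, Tmtc2 and Agmo were the others of the 8 genes with the largest F. By list, the stress and immune genes had the largest share with an interaction by edgeR, 6 of 11 (Sgk1, Stat3, Serpina3n, Fkbp5, C4b and Il33), and 4 by DESeq2. Of 13 receptors 5 had one (Adgrb3, Lpar1, Grm3, Gpr37 and Thrb) and 4 by DESeq2. Of 16 cholesterol genes 6 had one, among them Cyp51, Dhcr7, Msmo1, Hmgcs1 and Fdft1, and 5 by DESeq2. The leukodystrophy (12), cytoskeleton (11) and iron (6) genes tested had 0 by edgeR and by DESeq2, and 1, 2 and 1 at an unadjusted edgeR p under 0.05. The other lists had 1 to 3.

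Markers of other cells were present in the oligodendrocyte libraries and mostly not called. Their summed levels over mice were 354 to 1075 CPM for 7 astrocyte genes, 320 to 805 CPM for 7 projection neuron genes, 90.7 to 300 CPM for 3 general neuron genes and 93.8 to 170 CPM for 6 microglia and macrophage genes. They were 18.9 to 64.1 CPM for 4 precursor genes and 0 to 36.2 CPM for the endothelial, 0 to 21.8 CPM for the mural and 0 to 15.9 CPM for the fibroblast genes. The 4 oligodendrocyte markers summed to 10279 to 12932 CPM. Of the tested markers of other cells, the astrocyte glutamate transporter Slc1a3 and the precursor gene Lhfpl3 were called by the strain term, and 0 of 7 projection neuron, 0 of 3 neuron and 0 of 4 microglia genes were by edgeR or DESeq2 (at an unadjusted p under 0.05 these were 0, 1 and 0). No listed gene was at 0 counts over all oligodendrocytes.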

How the data were processed

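Nuclear RNA of the striatum was measured by 10x Multiome in 32 mice, and nuclei of 8 samples were pooled in a batch per the labels. The authors deposited raw counts (UMIs) per gene and barcode for each batch, whole numbers with no normalization, made with Cell Ranger ARC 2.0.0 and bcl2fastq 2.20.0.422 on mm10 per the submitters' processing notes. No strain-specific reference is named in the sources used here, and reads of CAST/EiJ and PWK/PhJ may map less well to mm10, which was not tested. The deposited annotation gives categories per barcode, with no measured unit. Per the deposited description file, Demuxlet assigned strains from RNA and from ATAC reads, nuclei with over 200 and under 7500 genes and under 15% mitochondrial counts were kept, and doublets were called with DoubletFinder. All 12066 oligodendrocyte nuclei passed these steps, and no other caller was run. The matrix of accessible regions was not used here. Deposited peak positions, 291715 in all, came from 1 index over all batches.

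Counts were summed per mouse and cluster, since nuclei of 1 mouse are not replicates, and compared over 4 mice per strain. Genes were filtered with filterByExpr by strain and scaled by TMM. The robust quasi-likelihood test of edgeR 4.0.16 (R 4.3.3) was run on a model of strain plus batch, p-values were Benjamini-Hochberg adjusted over all tested genes, and 0.05 was the threshold. CPM values are TMM-scaled within a fit and given as mean ± SD over 4 mice, and log2 differences as estimate ± SE against the mean of the other 7 strains. Marker levels by cluster are unscaled CPM of pooled counts. Interactions were tested in edgeR with the mouse as a block. Shares were compared by permutation within batches. DESeq2 1.42.0 and the other settings are given in the closing section. Each fit was tested on simulated data with no effect of batch or mouse and few changed genes. The spread of a gene was taken there from the trend over genes and not from the gene itself. The shares called in simulated data describe such data and may differ in the real libraries.

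The batch pairs the mice, since the labels state that a batch was 1 pool, and mice of the same batch deviated together from their strain means by a mean correlation of 0.139 (lowest -0.0791). Separate animals were the replicates. The cell type, gene lists and tests were chosen with earlier results of these data known. Genes were named by rule: the 12 largest F of the strain term, the largest separated difference up and down per strain, the 8 largest F per interaction, up to 4 genes per list by smallest p, with at least 10 CPM in the highest strain for the former kinds, the 4 markers and the 10 largest ratios to other clusters. All but Fkbp5 and list members given by direction follow it. A few list members are not reported here.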

Additional observations from a re-analysis of the deposited data

Results flagged for a closer look

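A mouse was taken as standing apart where its gap to the nearest of the other 3 mice of its strain was large against the range of all 4 (Dixon's criterion). This was examined for 94 genes and 5 measures in 8 strains, 792 groups in all, and 61 groups (7.702%) met it. Chance flags about 1 in 20 groups where the values are normally distributed. Where a gene had no counts in the other 3 mice, any count in the remaining mouse met the criterion. Npsr1 in A/J and A330049N07Rik in NOD/ShiLtJ are such groups. The 7.702% can therefore not be set against that rate, and such a flag says little about the mouse. The values are given by batch, each with the range of the other 3 mice of the strain.

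The mice of batch 3, the shallowest, made up 27 of the 61. Myo3a had 16.5 CPM in C57BL/6 (42.6 to 46.2 in the other 3). Mylk had 0 CPM in NZO/HlLtJ (4.15 to 4.503 in the other 3). Thsd4 had 6.08 CPM in PWK/PhJ (all 0 in the other 3). Poteg had 2.36 CPM in C57BL/6 (all 0 in the other 3). Psat1 had 52.0 CPM in CAST/EiJ (102 to 105 in the other 3). Degs1 had 311 CPM in NOD/ShiLtJ (147 to 172 in the other 3). Fa2h had 614 CPM in PWK/PhJ (442 to 461 in the other 3) and 701 CPM in WSB/EiJ (555 to 579.7 in the other 3). Msmo1 had 122 CPM in A/J (85.6 to 90.3 in the other 3) and 142 CPM in C57BL/6 (78.3 to 87.9 in the other 3). Gsn had 265 CPM in C57BL/6 (202 to 209 in the other 3). Pip4k2a had 496 CPM in 129S1/SvImJ (679 to 695 in the other 3). Trf had 2079 CPM in C57BL/6 (1613 to 1674 in the other 3) and 3121 CPM in NZO/HlLtJ (1805 to 1969.7 in the other 3). Tfrc had 17.96 CPM in NZO/HlLtJ (24.8 to 25.4 in the other 3). Erbb4 had 1849 CPM in A/J (2340.4 to 2408 in the other 3). Grm7 had 296 CPM in CAST/EiJ (191 to 203 in the other 3). Tcf7l2 had 129 CPM in A/J (52.8 to 63.2 in the other 3). Car2 had 1248 CPM in NOD/ShiLtJ (913 to 957 in the other 3). Ptgds had 1908 CPM in CAST/EiJ (972 to 1069 in the other 3). C4b had 4.72 CPM in C57BL/6 (15.1 to 16.5 in the other 3). Mbp had 6483 CPM in NZO/HlLtJ (7940.4 to 8119.5 in the other 3). Median UMIs per oligodendrocyte nucleus was 1282.5 in A/J (1728 to 1801 in the other 3), 1227 in C57BL/6 (1729 to 1832 in the other 3) and 1326.5 in CAST/EiJ (1687 to 1750 in the other 3). Median mitochondrial percent was 2.14% in C57BL/6 (4.14 to 4.41 in the other 3) and 1.68% in PWK/PhJ (4.09 to 4.58 in the other 3).

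In batch 1 there were 14. A330049N07Rik had 1.05 CPM in NOD/ShiLtJ (all 0 in the other 3). Tmem163 had 79.05 CPM in WSB/EiJ (113 to 118 in the other 3). Ctsc had 3.41 CPM in 129S1/SvImJ (all 0 in the other 3) and 2.25 CPM in NZO/HlLtJ (all 0 in the other 3). Polr3e had 25.3 CPM in A/J (37.7 to 39.3 in the other 3). Thsd4 had 1.14 CPM in 129S1/SvImJ (all 0 in the other 3). D030045P18Rik had 1.05 CPM in NOD/ShiLtJ (all 0 in the other 3). Spock1 had 456 CPM in C57BL/6 (324 to 342 in the other 3). Cntn4 had 37.5 CPM in 129S1/SvImJ (19.8 to 22.2 in the other 3). Pip4k2a had 688 CPM in PWK/PhJ (604 to 615 in the other 3). Bcas1 had 661 CPM in 129S1/SvImJ (624 to 631 in the other 3). Serpina3n had 1.66 CPM in CAST/EiJ (all 0 in the other 3). Sgk1 had 113 CPM in NZO/HlLtJ (46.4 to 52.1 in the other 3). Sec14l5 had 482 CPM in 129S1/SvImJ (591 to 612 in the other 3).

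In batch 2 there were 11. Npsr1 had 0.548 CPM in A/J (all 0 in the other 3). Myo3a had 538 CPM in CAST/EiJ (645 to 664 in the other 3). Gm49083 had 1.65 CPM in C57BL/6 (all 0 in the other 3). Zfp488 had 14.9 CPM in 129S1/SvImJ (51.1 to 57.9 in the other 3). Fa2h had 492 CPM in CAST/EiJ (586 to 603 in the other 3). Dock10 had 2470.1 CPM in A/J (2841 to 2912 in the other 3). Gjc3 had 499 CPM in A/J (557 to 568 in the other 3). Tfrc had 52.7 CPM in WSB/EiJ (41.6 to 43.3 in the other 3). C4b had 1.38 CPM in NOD/ShiLtJ (9.14 to 10.6 in the other 3). Nipal4 had 96.3 CPM in WSB/EiJ (68.0 to 71.6 in the other 3). Gm48508 had 129 CPM in 129S1/SvImJ (152 to 157 in the other 3).

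In batch 4 there were 9. Npsr1 had 1.83 CPM in NOD/ShiLtJ (all 0 in the other 3). Zfp804b had 3657 CPM in 129S1/SvImJ (2468 to 2628 in the other 3). Gm49083 had 30.2 CPM in NOD/ShiLtJ (19.3 to 21.1 in the other 3) and 4.27 CPM in PWK/PhJ (all 0 in the other 3). Cyp2d22 had 8.24 CPM in C57BL/6 (4.54 to 4.95 in the other 3). Nsdhl had 29.9 CPM in NZO/HlLtJ (18.7 to 20.3 in the other 3). Ninj2 had 364 CPM in A/J (269 to 279 in the other 3). Itpr2 had 97.1 CPM in CAST/EiJ (67.6 to 71.5 in the other 3). Fyn had 67.3 CPM in NZO/HlLtJ (75.4 to 76.8 in the other 3).

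The strain effect differed between oligodendrocytes and Drd1+ neurons for 8 genes named above by their F, with edgeR adjusted p-values of the interaction for Spock1 (3.77e-45), Cntn3 (4.70e-41), Npsr1 (1.63e-35), Ppp1cc (1.23e-34), Psat1 (9.39e-33), Tenm2 (7.55e-32), Adam11 (6.28e-31) and Cdh2 (6.03e-30). Between oligodendrocytes and astrocytes it differed for Cdh2 (2.46e-43), Cntn4 (4.59e-36), Fhit (6.54e-31), Pde4d (1.79e-32), Cyp2d22 (6.72e-32), Tmtc2 (6.54e-31), Lama2 (9.39e-31) and Agmo (1.47e-30), again edgeR adjusted p-values of the interaction. These genes were chosen by the size of F, and their levels by strain stand in the report for those described there.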

How the results depend on the processing

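The sign of a log2 difference was followed only for the 16 separated ones, 1 higher and 1 lower per strain. None of them changed sign under the settings tried, though fewer could be tested with equal nuclei. They had been chosen as large and separated, so this says little about the other named genes. Without the batch as a replicate block, 2457 genes had a strain term against 3161 with it, the median pair of strains had 641.5 called genes, and the adjusted permutation p was 0.120 for both shares of oligodendrocytes and 0.999 for their median UMIs. With nuclei of at least 1000 UMIs the share among non-neuronal nuclei had an adjusted p of 0.0544, and adjusted over all 18 clusters, a setting chosen after seeing the data, the share of all nuclei had 0.0755. With 133 nuclei in every mouse, hence fewer counts, 1436 genes had a strain term. Against the other strains the counts were then 260 in 129S1/SvImJ, 245 in A/J, 269 in C57BL/6, 778 in CAST/EiJ, 306 in NOD/ShiLtJ, 305 in NZO/HlLtJ, 683 in PWK/PhJ and 382 in WSB/EiJ, and 362.5 for the median pair. The interaction with Drd1+ neurons called 1449 genes in thinned libraries.

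Leaving out 1 batch at a time, hence fewer mice, gave 2405 to 2807 genes with a strain term, 436 to 579 in 129S1/SvImJ, 484 to 648 in A/J, 485 to 588 in C57BL/6, 1140 to 1454 in CAST/EiJ, 557 to 755 in NOD/ShiLtJ, 523 to 568 in NZO/HlLtJ, 974 to 1380 in PWK/PhJ and 601 to 778 in WSB/EiJ. The median pair had 596.5 to 749.5, and the interactions 1510 to 2246 (Drd1+ neurons) and 717 to 1077 (astrocytes). Adjusted p ran from 0.0393 to 0.409 for either share and from 0.0428 to 0.409 for median UMIs. DESeq2 gave 2769 genes, its size factors in edgeR 3156, and no filter on low counts 3659. Of the values for single genes and lists, 1132 of 1169 kept their side of the threshold or stayed within 1.5 times the count, and most of the others are named in the report. The genes among them had mostly been chosen for a large F or a small p, and values that a setting left untested were not counted. This share therefore says little about other genes. Where no cause is named, the cause was not tested. With 133 to 1011 nuclei per mouse, genes of low counts are limited by depth, and 9082 of 32285 could be tested.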
